A study of Homo sapiens with 14 samples.

Results

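The genes of glycolysis, lactate handling and the response to low oxygen were followed across 14 human neuroblastoma cell lines. The set was a named list of 35 genes, chosen by function, and all 35 were found among the 20049 gene symbols of the deposited count table. Neuroblastoma is a childhood tumour of the sympathetic nervous system, and the lines are established cultures. The series was made for a study of damage to telomeres, tumour immunogenicity and treatment against PD-L1. They were NGP, Lan-6, SK-N-AS, NBL-S, GI-ME-N, SK-N-DZ, LS, CLB-GA, SK-N-FI, SK-N-BE(2)C and 2 pairs that share an origin, SK-N-SH with SH-SY5Y and IMR32 with IMR5-75. Each gave 1 library, and the labels put all of them in 1 group without a treatment or time. The labels give the medium as RPMI1640 or DMEM with serum and do not say which line grew in which, nor do they give an oxygen level. By textbook knowledge SH-SY5Y is a subclone of SK-N-SH and IMR5-75 of IMR32.

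Glycolysis splits glucose into pyruvate. Lactate dehydrogenase then interconverts pyruvate and lactate, LDHA encoding the muscle-type and LDHB the heart-type subunit, and the carriers of the SLC16A family move lactate across the cell membrane. In low oxygen, the proline hydroxylases of the EGLN family and the VHL ubiquitin ligase stop marking the hypoxia-inducible alpha subunits, encoded by HIF1A and EPAS1, for breakdown, and the stabilised proteins raise the transcription of many glycolytic genes, of CA9, VEGFA, BNIP3, ADM and NDRG1, and of EGLN3. That control acts on protein, so RNA levels of HIF1A and EPAS1 do not measure their activity. EPAS1 is known for its expression in the sympathoadrenal lineage from which neuroblastoma arises.

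Hypoxia-inducible factors bind the core ACGTG or GCGTG, and the core ACGTG also lies inside CACGTG, the E-box read by MYC-family proteins. RefSeq start sites on GRCh38.p14 were listed for 30 of the 35 genes, with 57 starts, and the 250 bases before each start were searched for both cores on both strands. ACGTG was present before 21 of the 57 starts (36.8%), against 18.5% of 35116 starts of all genes. Either core was present before 57.9% of the 57 starts and 43.2% of all starts. CACGTG was present before 12.3% and 6.3%. Starts of 1 gene are not independent: HK1 and PFKM had 7 each and SLC16A3 had 5, and some windows overlapped. These shares were not compared with those of starts of like GC content. SLC2A3, SLC16A1, VHL, VEGFA and NDRG1 had no entry. The sites shown are those before LDHA, which was nearly missing from 1 line, before PFKP and CA9, each far from the other lines in 1 line, before SLC16A3, one of the most variable of the 35, and before PGK1 and PDK1, which are common examples of hypoxia targets. Each is on the gene's own strand, with ACGTG, its reverse complement CACGT, or the overlapping pair CACGTG in capitals.
LDHA, chr11:18394370-18394391: tcccagcgCACGTGgagcagtc
LDHA, chr11:18394468-18394489: ccgactcaCACGTGggttcccg
LDHA, chr11:18394482-18394502: ggttcccgCACGTccgccggc
PFKP, chr10:3069042-3069062: gagcgcctACGTGatgcccgg
CA9, chr9:35673902-35673922: ttccaatgCACGTacagcccg
SLC16A3, chr17:82228966-82228986: aggcggtgACGTGcgcggggg
SLC16A3, chr17:82228979-82228999: cgcgggggACGTGccgcgcca
PGK1, chrX:78104038-78104058: cgtgccggACGTGacaaacgg
PGK1, chrX:78104057-78104077: ggaagccgCACGTctcactag
PDK1, chr2:172556065-172556085: ctgcccgcCACGTccctcacg
PDK1, chr2:172556074-172556089: acgtccctCACGTacc
LDHA had 3 distinct sites, 2 of which were CACGTG. HK2, also far from the other lines in 1 line, had 4 sites, which are not shown. No ACGTG lay in the same window of LDHB, HIF1A or EPAS1. The same held for SLC2A1, HK1, PFKL, PFKFB4, PGAM1, ENO1, PKM, EGLN3 and ADM. GCGTG was present before HIF1A and before EPAS1, with 1 match each. A match of letters is a description of the window and not a measured binding site.

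The smallest library was that of Lan-6, with 35856642 counts, and the largest that of LS, with 58644013. Levels are CPM, a gene's counts relative to its library's total, scaled by the trimmed mean of M-values (TMM), with 1 library per line, so differences between lines have no replicate check and intervals cover counting error only. Long transcripts were low in Lan-6 and GI-ME-N: across 13053 genes, the rank correlation of a gene's level relative to the other lines with transcript length was -0.38 in Lan-6 and -0.24 in GI-ME-N. In Lan-6 it was 0.59 with GC content. With this trend removed, 22 of the 35 genes moved by over 1.5 times in Lan-6 and none in another line. The values with the trend removed are given where this bears on a level described in Lan-6. The lines carried the adrenergic markers of neuroblastoma to different extents. HAND2, a transcription factor of the sympathetic lineage, reached at least 5 CPM in 14 lines, with its lowest level in SK-N-SH (111 CPM) and its highest in CLB-GA (1101 CPM). DBH, which makes noradrenaline, did so in 11 lines and was lowest in LS (1.10 CPM), with 1.64 CPM in GI-ME-N. The mesenchymal minus adrenergic score was highest in GI-ME-N and SK-N-SH. CD3E stayed at or under 0.0683 CPM and PECAM1 at or under 2.37 CPM, while PTPRC, a leukocyte marker, reached 470 CPM in SK-N-AS.

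The 35 genes were highest as a group in GI-ME-N. They took 2.88% of all its counts, and 0.771% (SK-N-BE(2)C) to 1.28% (Lan-6) in the other lines. GAPDH alone took 0.523% in Lan-6, and these shares were not computed with the length and GC trend removed. Of the 35, 24 had their highest level of the 14 lines in GI-ME-N, where 16.0% of 14769 genes with at least 5 CPM in some line did so, and 23 of 35 did with the length and GC trend removed. The median log2 fold of GI-ME-N over the median of the other 13 lines was 2.08 for the 35 genes, and 1.73 with the trend removed, against 0.06 over the 14769 genes. SK-N-SH, with nearly the same mesenchymal score (8.91, and 9.13 in GI-ME-N), had 1 of the 35 genes at its highest level, where 9.05% of the 14769 genes were at theirs. Each gene has 1 highest line, so the 24 in GI-ME-N left few for SK-N-SH, and that count says little. In SK-N-SH, 23 of the 35 were above their own median over the 14 lines, as were 50.9% of the 14769 genes. Of the 5 proliferation markers, GI-ME-N had the highest levels of CCNB1 (389 CPM), BUB1 (179 CPM) and AURKA (183 CPM), while MKI67 and TOP2A were highest in SK-N-DZ. Their summed level was 1877 CPM in GI-ME-N, 2073 CPM in SK-N-DZ and lowest in Lan-6, at 558 CPM. Among the 15 mesenchymal markers, VIM (10610 CPM), FN1 (17720 CPM), FOSL1, FOSL2, SNAI2, CD44, AXL, RUNX1 and COL1A1 were highest in GI-ME-N. PRRX1, YAP1, WWTR1 and NOTCH2 were highest in SK-N-SH, TWIST1 in SH-SY5Y and LUM in SK-N-AS. The part of the proliferation and mesenchymal markers in the result was not tested.

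**Figure D1:**
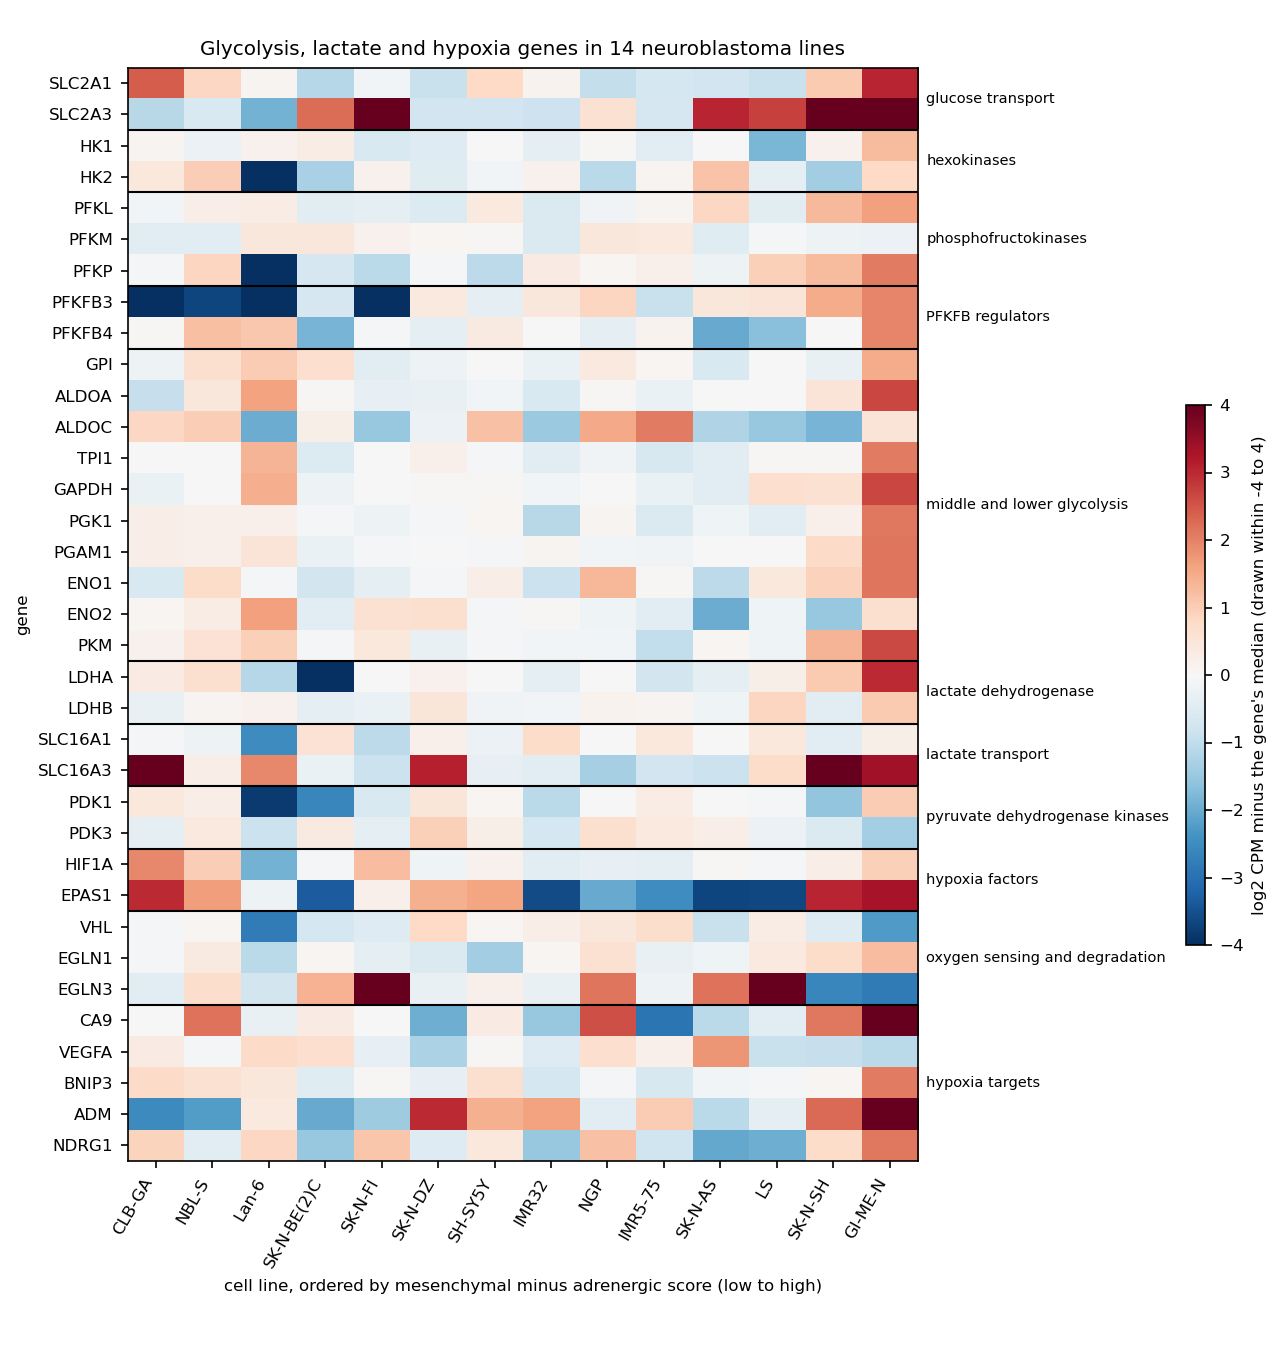
Level of each of the 35 genes in each of 14 lines, as log2 CPM minus the gene's median over the lines (colour, drawn within -4 to 4), with 1 library per line, genes grouped by role and lines ordered by mesenchymal minus adrenergic score. The GI-ME-N column is red for most glycolytic genes, and the dark blue cells include LDHA in SK-N-BE(2)C, HK2 and PFKP in Lan-6 and PFKFB3 in Lan-6, CLB-GA, NBL-S and SK-N-FI.

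Of the glucose carriers, SLC2A1 (GLUT1) ranged from 20.9 CPM in SK-N-BE(2)C to 384 CPM in GI-ME-N, with a median of 46.6 CPM. CLB-GA followed at 251 CPM and SK-N-SH at 96.2 CPM. SLC2A3 (GLUT3), the high-affinity carrier known from neurons, was split: 73.4 CPM in GI-ME-N, 56.1 in SK-N-FI and 52.6 in SK-N-SH, and 0.237 (Lan-6, or 0.386 with the trend removed) to 8.73 CPM (SK-N-AS) in the other 11 lines. CLB-GA, second in SLC2A1, had 0.443 CPM of SLC2A3. SLC2A3 has a near-identical copy, SLC2A14, so that reads of the pair can be split by the counting.

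Hexokinases make glucose 6-phosphate. HK1, the housekeeping form, stayed within 83.4 to 156 CPM in 12 lines, with less in LS (36.3 CPM) and more in GI-ME-N (307 CPM). HK2, the inducible form, was between 40.4 (SK-N-SH) and 234 CPM (SK-N-AS) in 13 lines. Lan-6 stood apart at 2.85 CPM from 84 counts, 12.2-fold under the next line with 0.5 CPM added to both, and at 4.0 CPM with the trend removed. Per kb of transcript, HK2 exceeded HK1 in 4 lines, LS, NBL-S, SK-N-AS and, by a log2 ratio of 0.01, SK-N-FI, and in 3 with the longest transcript as the length.

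The phosphofructokinases catalyse the committed step. PFKM, the muscle form, varied least of the 35, from 99.99 CPM in IMR32 to 203 CPM in NGP. PFKL, the liver form, was lowest in IMR32 (46.0 CPM) and highest in GI-ME-N (212 CPM) and SK-N-SH (168 CPM). With the trend removed Lan-6 was its lowest line, at 24.7 CPM from 82.9 CPM before. PFKP, the platelet form, was 6.78 CPM in Lan-6 from 200 counts, or 4.28 CPM with the trend removed, then 68.5 CPM in SK-N-FI and up to 612 CPM in GI-ME-N. Beside these low levels of HK2 and PFKP, Lan-6 had 145 CPM of HK1 and 202 CPM of PFKM. The enzymes encoded by PFKFB3 and PFKFB4 make and break the activator fructose 2,6-bisphosphate. PFKFB3 was 0.983 to 3.50 CPM in Lan-6, SK-N-FI, CLB-GA and NBL-S, and 24.5 (IMR5-75) to 178 CPM (GI-ME-N) in the other 10 lines, with no line in between. With the trend removed PFKFB3 was 0.526 CPM in Lan-6. PFKFB4 ranged from 2.79 CPM in SK-N-AS to 44.8 CPM in GI-ME-N.

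The 10 genes of middle and lower glycolysis were abundant in every line except for ALDOC. GAPDH ranged from 1738 CPM in SK-N-AS to 14938 CPM in GI-ME-N, with a median of 2319 CPM. Lan-6 was second at 6355 CPM, but had 3079 CPM with the trend removed, under LS and SK-N-SH. Of the others, GPI, ALDOA, TPI1, PGK1, PGAM1, ENO1 and PKM were also highest in GI-ME-N. PGK1, which makes the first ATP of the pathway, was 1656 CPM there and 178 (IMR32) to 458 CPM (CLB-GA) elsewhere. PKM, pyruvate kinase, was 5810 CPM there, 2357 CPM in SK-N-SH and 463 to 1785 CPM in the other 12 lines. The nervous-system forms behaved differently. ENO2, neuron-specific enolase, was highest in Lan-6 at 587 CPM, with 297 CPM in GI-ME-N, and low in SK-N-SH (66.5 CPM) and lowest in SK-N-AS (47.4 CPM). ALDOC, the brain aldolase, was highest in IMR5-75 at 91.2 CPM and lowest in Lan-6 at 5.42 CPM, or 3.10 CPM with the trend removed. Per kb, ALDOC stayed under ALDOA and ENO2 under ENO1 in all 14 lines. Many of these genes have processed pseudogenes, and how the counting shared their reads is not given in the sources used here.

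LDHA separated 1 line from the rest at each end. SK-N-BE(2)C had 9.81 CPM from 431 counts (95% Poisson interval 8.91 to 10.8 CPM), Lan-6 had 209, SK-N-SH 958 and GI-ME-N 3658 CPM, around a median of 465 CPM. SK-N-BE(2)C lay 20.3-fold under the next line, with 0.5 CPM added to both. LDHB moved far less, between 540 (SK-N-SH) and 1536 CPM (GI-ME-N), and SK-N-BE(2)C had 578 CPM. Per kb of transcript, LDHB exceeded LDHA in 12 of 14 lines, with a median LDHA share of 30.0% of the pair. LDHA made up 64.9% in GI-ME-N and 58.0% in SK-N-SH, the lines where it was the more abundant, then 42.7% in CLB-GA and 41.3% in NBL-S. It made up 16.3% in Lan-6 and 1.30% in SK-N-BE(2)C. The number of lines with more LDHA than LDHB was 2 also with the longest transcript as the length and with the GC and length trend removed.

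**Figure D2:**
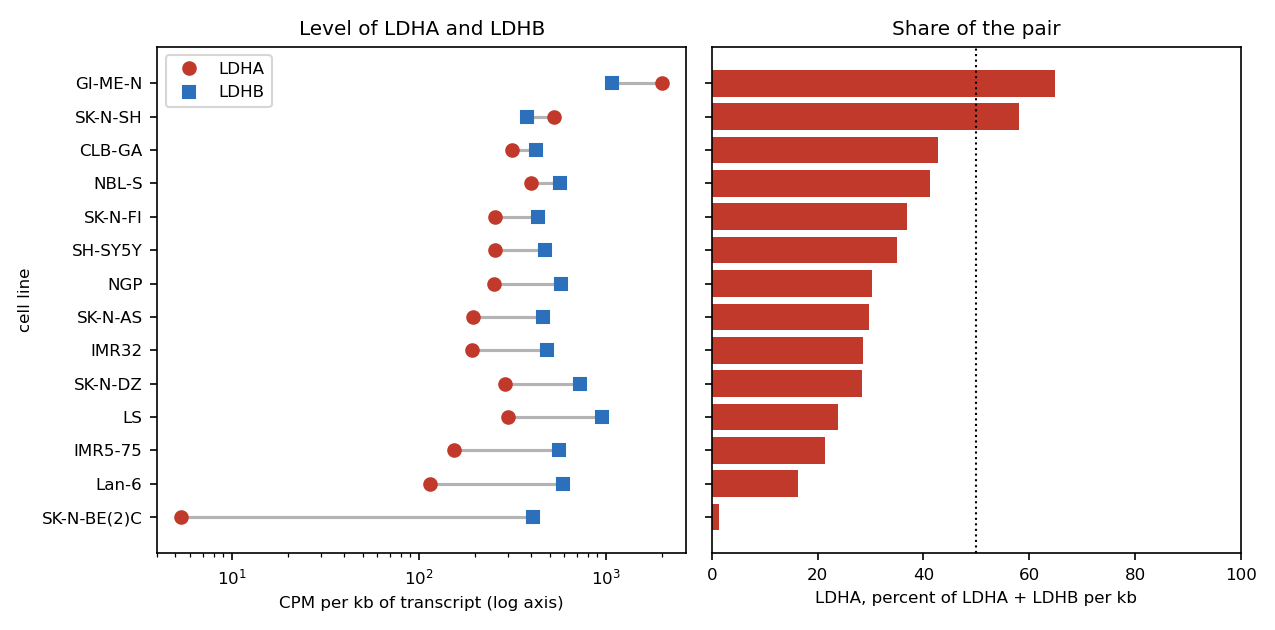
Left, CPM per kb of transcript (log axis) of LDHA (circles) and LDHB (squares) in each of 14 lines, 1 library each, ordered by their ratio; right, LDHA as a percent of the pair per kb, with a dotted line at 50%. LDHB stays within a narrow range while LDHA falls to 1.30% of the pair in SK-N-BE(2)C and reaches 64.9% in GI-ME-N.

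Low LDHA in SK-N-BE(2)C was seen beside low levels of neighbouring genes of chromosome 11. LDHA lies at chr11:18394388-18408425 on GRCh38 (GENCODE 29). Of 13 other genes with at least 5 CPM in some line within 500000 bases of it, 10 were under the median of the other lines in SK-N-BE(2)C, where 52.2% of all such genes were. GTF2H1 (26.7 CPM, 33.2 to 95.8 CPM elsewhere), SAAL1 (14.5 and 24.6 to 55.9 CPM), TSG101 (33.8 and 45.8 to 115 CPM) and SERGEF (5.60 and 7.85 to 31.0 CPM) had their lowest level there, a place that 7.85% of all such genes had. LDHAL6A, a related gene in the same stretch, was 7.19 CPM in SK-N-BE(2)C and had a median of 1.21 CPM elsewhere. These neighbours were lower by far less than LDHA.

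Lactate carriers also differed. SLC16A1 (MCT1) was 25.8 CPM in Lan-6, or 49.2 CPM with the trend removed, and 71.3 (SK-N-FI) to 244 CPM (IMR32) elsewhere. SLC16A3 (MCT4), known for lactate export from glycolytic cells, was 106 CPM in SK-N-SH, 50.2 in CLB-GA, 32.2 in GI-ME-N, 27.3 in SK-N-DZ and 11.9 in Lan-6, and 1.21 to 5.16 CPM in the other 9 lines. With the trend removed Lan-6 had 4.61 CPM, less than LS. Per kb, SLC16A3 exceeded SLC16A1 in SK-N-SH, where it was 66.2% of the pair. With the longest transcript as the length no line had more SLC16A3 than SLC16A1. GI-ME-N, with the most LDHA, had less SLC16A3 than SK-N-SH and CLB-GA.

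The pyruvate dehydrogenase kinases hold pyruvate back from the mitochondrion. PDK1 was 3.49 CPM in Lan-6, or 6.20 CPM with the trend removed, 8.22 in SK-N-BE(2)C and 16.9 in SK-N-SH, and reached 102 CPM in GI-ME-N, with a median of 50.2 CPM. The lowest level of PDK1 was in the same line as those of HK2 and PFKP, and the second lowest in the line with almost no LDHA. PDK3 was low in every line, between 2.39 and 12.04 CPM. Of the 35 genes, 9 had their lowest level in Lan-6, where 19.4% of the 14769 genes did, and 10 did with the trend removed, against 11.8% of genes.

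Both hypoxia factor genes were expressed, and EPAS1 varied far more than HIF1A. EPAS1 ranged from 2.998 CPM in SK-N-AS to 384 CPM in GI-ME-N, with a median of 39.2 CPM. SK-N-SH (322 CPM) and CLB-GA (304 CPM) were close to GI-ME-N. LS, IMR32, SK-N-BE(2)C, IMR5-75 and NGP joined SK-N-AS under 10 CPM. HIF1A ranged from 53.6 CPM in Lan-6, or 122 CPM with the trend removed, to 759 CPM in CLB-GA, and the second lowest line, IMR32, had 145 CPM. Per kb, HIF1A exceeded EPAS1 in 13 of 14 lines, with a median log2 ratio of EPAS1 to HIF1A of -2.92. SK-N-SH was near parity at 50.5%, followed by GI-ME-N at 42.9%, Lan-6 at 32.0% and SK-N-DZ at 30.9%. The place of Lan-6 did not hold with the trend removed, where its log2 ratio went from -1.09 to -2.04, under those of SK-N-DZ, SH-SY5Y, CLB-GA and NBL-S. In IMR32, SK-N-BE(2)C, LS and SK-N-AS the share was 1.10% to 1.64%. As a description over 12 lines, without the subclones, Pearson's r of EPAS1 with HIF1A was 0.50 (rho 0.53), and 0.53 without LS and SK-N-AS, the lines farthest from the median of EPAS1. The points share library, depth and scaling, as in each correlation below.

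**Figure D3:**
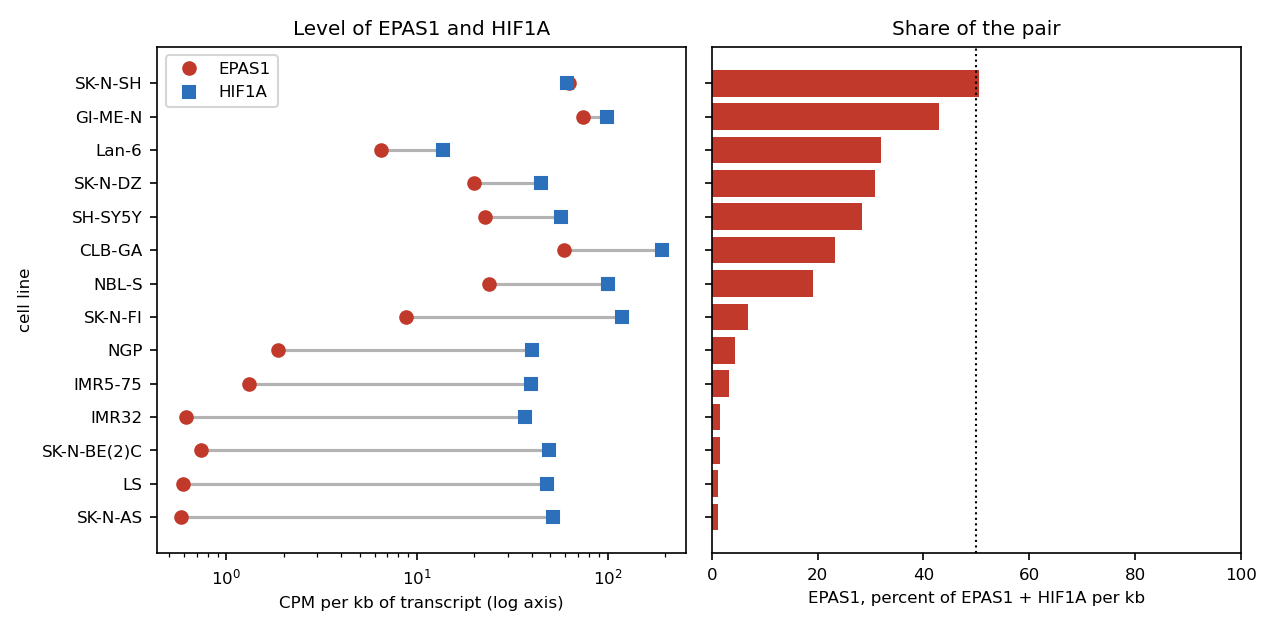
Left, CPM per kb of transcript (log axis) of EPAS1 (circles) and HIF1A (squares) in each of 14 lines, 1 library each, ordered by their ratio; right, EPAS1 as a percent of the pair per kb, with a dotted line at 50%. HIF1A is present throughout, while EPAS1 runs from 1.10% of the pair in SK-N-AS to 50.5% in SK-N-SH.

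The genes of oxygen sensing did not move as a block. EGLN3 was 96.1 CPM in SK-N-FI and 68.3 CPM in LS, at most 18.6 CPM elsewhere, and lowest in GI-ME-N (0.527 CPM) and SK-N-SH (0.631 CPM), where EPAS1 was highest. Over 12 lines, r of EGLN3 with EPAS1 was -0.62 (rho -0.71), and -0.74 without LS and SK-N-FI. EGLN1, the main oxygen sensor of most cells, was lowest in SH-SY5Y (18.1 CPM) and highest in GI-ME-N (113 CPM). VHL was low in Lan-6 (10.6 CPM) and GI-ME-N (15.6 CPM), and 40.6 to 131 CPM in the other 12 lines. With the trend removed VHL was 15.2 and 16.2 CPM in these lines.

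CA9, the cell-surface carbonic anhydrase often used as a hypoxia marker, was 55.1 CPM in GI-ME-N from 1777 counts. It was at most 2.04 CPM, in NGP, elsewhere, and had a count of 0 in IMR5-75, which allows up to 0.0665 CPM. Among the 35 genes it was the 1 with a highest line at least 4-fold above the next, a place that 4.54% of the 14769 genes had. LDHA, HK2 and PFKP were the 3 with a lowest line at least 4-fold under the next, against 2.69% of genes. ADM, the vasodilator adrenomedullin, was 98.6 CPM in GI-ME-N, 33.8 in SK-N-DZ and 0.676 to 20.4 CPM elsewhere. BNIP3, of mitochondrial autophagy, was 294 CPM in GI-ME-N and 42.7 to 119 CPM elsewhere, and NDRG1, a stress-induced gene, 64.8 CPM and 3.66 to 34.4 CPM. VEGFA, the main angiogenic growth factor, was highest in SK-N-AS (294 CPM) and Lan-6 (146 CPM), and GI-ME-N (40.5 CPM) and SK-N-DZ (36.0 CPM) were among its lowest lines. With the trend removed VEGFA was 52.1 CPM in Lan-6, no longer among the high lines, and GI-ME-N was the lowest at 27.7 CPM. The r of VEGFA with ADM over 12 lines was -0.64 (rho -0.64), and -0.63 without SK-N-AS and SK-N-DZ.

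To ask whether the genes followed a wider property of the lines, a slope on each of 4 levels was fitted for every gene over 12 lines, without the subclones, with edgeR's quasi-likelihood test and Benjamini-Hochberg adjustment over all genes tested. A slope is the log2 change per SD of the level, and the threshold was an adjusted p of 0.05. The levels were MYCN, the oncogene amplified in many neuroblastomas, the mesenchymal minus adrenergic score, EPAS1 and HIF1A. On the log2 CPM scale MYCN was lowest in SK-N-SH (-1.22) and highest in SK-N-BE(2)C (11.13). There are no replicates of a line, so p-values measure the spread between single libraries.

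With MYCN, 1 of the 35 genes passed, against 3.48% of 17781 genes. PFKL fell with MYCN, with a slope of -0.67 (SE 0.12, n = 12, adjusted p = 0.0264 in edgeR). Its slope was -0.41 with the GC and length trend removed (adjusted p = 0.156 in edgeR), where 3.45% of all genes passed. The call was also lost with the subclones in place of their parents (adjusted p = 0.0757) and with ranks of MYCN. Without GI-ME-N, IMR32, NGP, SK-N-DZ or SK-N-SH in turn it was lost too (adjusted p between 0.0582 and 0.0683), with slopes between -0.56 and -0.71. Few genes of any kind passed in these fits. Called were 8 of 18143 genes without GI-ME-N, 14 of 18104 without SK-N-SH and 25 of 17599 without SK-N-DZ. Without IMR32, without NGP and with the subclones 0 passed, and with ranks 95 of 17781. The slopes of 27 of the 35 were negative, with a median of -0.36, while 49.4% of all genes had a positive slope and the median was -0.01. An unadjusted p under 0.05 was reached by 13 of the 35, against 25.0% of all genes. Without GI-ME-N it was reached by 2 of the 35, against 19.1% of all genes, and the median slope was -0.16. All 15 mesenchymal markers had a negative slope on MYCN too, 4 of them called in edgeR, and the fibroblast marker COL1A2 and the leukocyte marker CD68 fell. Their part in the result was not tested. PKM (slope -0.74, adjusted p = 0.0579) and PGAM1 (slope -0.51, adjusted p = 0.0980) came next in edgeR. LDHA, often described as a MYC target, had a slope of -0.83 (SE 0.40, adjusted p = 0.219 in edgeR), and r of LDHA with MYCN was -0.45 (rho -0.48).

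With the mesenchymal score, 3 of the 35 rose and none fell, while 6.01% of 18185 genes were called, 3.46% upward and 2.55% downward. They were PFKL (slope 0.58, SE 0.13, adjusted p = 0.0225), CA9 (slope 2.04, SE 0.48, adjusted p = 0.0251) and PGAM1, phosphoglycerate mutase (slope 0.50, SE 0.14, adjusted p = 0.0473), all by edgeR. The slopes of 27 of the 35 were positive, with a median of 0.37, against 45.7% positive and a median of -0.04 over all genes. An unadjusted p under 0.05 was reached by 13 of the 35, against 20.5% of all genes. Without GI-ME-N none of the 35 passed in edgeR (2.58% of all genes), 2 had an unadjusted p under 0.05 (14.4% of all genes), and the median slope was -0.01. Without Lan-6, 7 passed (9.53% of all genes), and with the trend removed 6 did (8.09% of all genes). Without SK-N-SH, 1 passed (3.13% of all genes). CA9 lost its call without GI-ME-N (adjusted p = 0.863) and PFKL without GI-ME-N (0.178) or SK-N-SH (0.0906), while PGAM1 lost it without any 1 of 9 lines. With limma on the deposited log2 values the adjusted p of these 3 genes was 0.0668 to 0.159. The fibroblast markers COL1A2 and COL3A1 and the leukocyte marker CD68 rose with the score too, and their part in the result was not tested.

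With EPAS1, no gene of the 17339 tested passed in edgeR (0.0%). The largest slopes by rank of p were those of SLC16A3 (1.81, SE 0.36, adjusted p = 0.270), SLC2A1 (1.15, SE 0.24, adjusted p = 0.270) and CA9 (2.38, SE 0.66, adjusted p = 0.300). An unadjusted p under 0.05 was reached by 14 of the other 34 genes, all with a positive slope, against 10.4% of all genes, and by 5 without GI-ME-N, against 6.92%. Of the mesenchymal markers 14 of 15 had a positive slope on EPAS1 and 6 an unadjusted p under 0.05, as did 4 and 3 of the 5 fibroblast markers, and their part in the result was not tested. DESeq2 in place of edgeR called 5 of the 34 and 2.73% of all genes. With HIF1A, no gene of 18214 passed in edgeR (0.0%), 4 of 34 reached an unadjusted p under 0.05, against 8.61% of all genes, and DESeq2 called 1 of the 34, SLC2A3, and 2.42% of all genes. The smallest p were those of SLC2A1 (slope 0.78, adjusted p = 0.483), SLC2A3 (slope 2.41, adjusted p = 0.541) and HK2 (slope 0.99, adjusted p = 0.547).

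**Figure D4:**
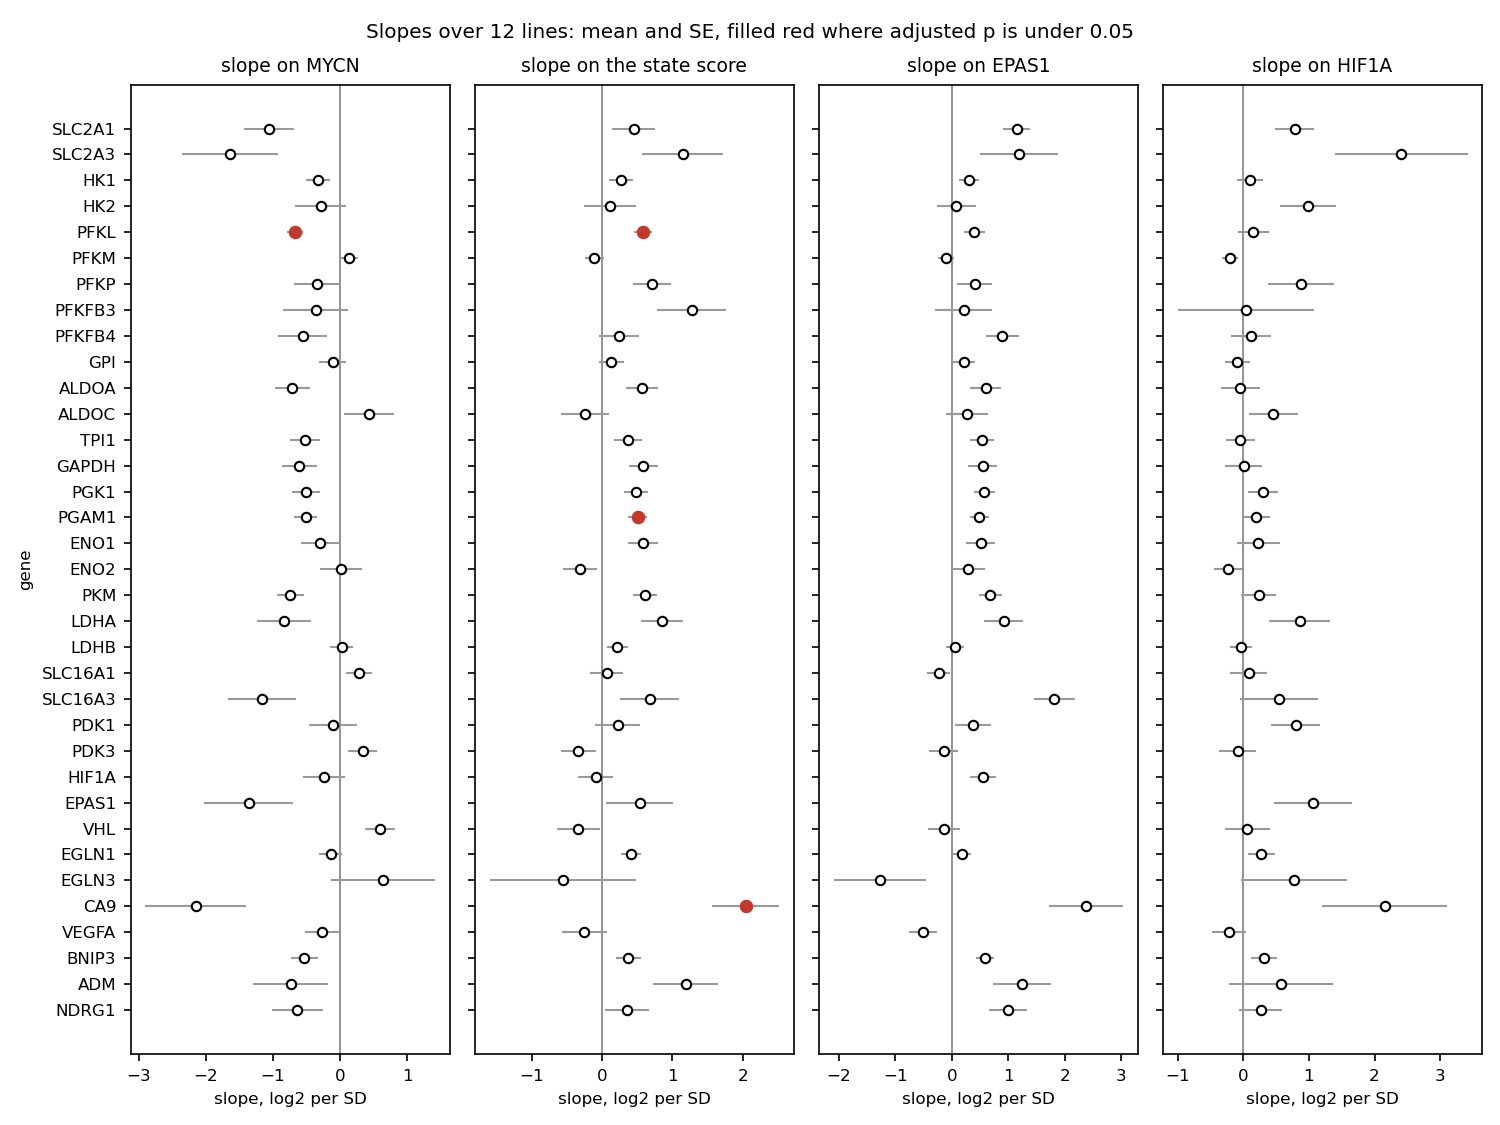
Slope (log2 per SD, points) and SE (bars) of each of the 35 genes over 12 lines in 4 edgeR fits, on MYCN, the mesenchymal minus adrenergic score, EPAS1 and HIF1A, the gene that is the level being left out of its own fit. Red points mark adjusted p under 0.05, which are PFKL on MYCN and PFKL, PGAM1 and CA9 on the score. Most points lie left of 0 for MYCN and right of 0 in the other panels.

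Between parent and subclone, ALDOC was the 1 gene of the 35 at least 4-fold apart in both pairs, higher in the subclone each time. Between SK-N-SH and SH-SY5Y, 5 of 33 genes with at least 5 CPM in 1 of the pair were at least 4-fold apart, against 16.0% of 12596 genes. SLC2A3 (52.6 CPM in SK-N-SH, 0.574 in SH-SY5Y), SLC16A3 (106 and 2.45 CPM), PFKP (342 and 70.0 CPM) and EGLN1 (80.1 and 18.1 CPM) were lower in the subclone, and ALDOC (5.93 and 48.8 CPM) was higher. In the same order LDHA was 958 and 464 CPM and EPAS1 322 and 117 CPM. Between IMR32 and IMR5-75, 1 of 31 was at least 4-fold apart, against 8.81% of 12448 genes: ALDOC, with 7.69 CPM in IMR32 and 91.2 CPM in IMR5-75. PDK1 was also higher in both subclones, with 16.9 and 53.1 CPM in the first pair and 23.9 and 61.6 CPM in the second.

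Of the 16 pairs of the genes whose correlation was computed, LDHA with PDK1 had r 0.64 (rho 0.62), and 0.53 without GI-ME-N and SK-N-BE(2)C. PFKP with PFKM had r -0.54 (rho -0.37), and -0.41 without GI-ME-N and Lan-6. For the other pairs of forms of 1 enzyme or carrier, apart from LDHA with LDHB, Pearson's r was between -0.13 and 0.18 over the 12 lines. It was 0.18 for SLC2A1 with SLC2A3 and 0.07 without CLB-GA and GI-ME-N, the 2 lines that lay farthest out in the first gene. For HK1 with HK2 it was -0.06, and -0.44 without GI-ME-N and LS. For ALDOA with ALDOC it was 0.00, and -0.03 without GI-ME-N and Lan-6. For ENO1 with ENO2 it was 0.18, and 0.08 without GI-ME-N and NGP. For SLC16A1 with SLC16A3 it was -0.13, and -0.45 without Lan-6 and SK-N-FI. LDHA with LDHB had r 0.48 (rho 0.17), and -0.15 without GI-ME-N and SK-N-BE(2)C, so it rested on those lines.

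Other genes of the same pathways were taken from fixed lists. Of 33 other glycolysis and lactate genes tested, SLC16A7, the lactate and pyruvate carrier MCT2, rose with MYCN (slope 2.62, adjusted p = 0.0358 in edgeR), as 1.1% of all genes did. SLC16A7 was lowest in GI-ME-N (0.682 CPM) and highest in NGP (427 CPM), the widest range of its list, followed by EMB, a partner protein of SLC16A carriers (NBL-S 0.0207, SK-N-SH 108 CPM), and FBP1 of gluconeogenesis (SK-N-SH 0.0274, LS 64.4 CPM). HK3 (slope -2.51, adjusted p = 0.0228) and LDHAL6A (slope -1.63, adjusted p = 0.0280) fell with the mesenchymal score in edgeR. The summed level of this list was highest in GI-ME-N (1839 CPM). Its mean log2 CPM relative to all lines, over 20 genes kept by the low-count filter, was -0.45 there, with only SK-N-AS lower (-0.59). Of 31 other hypoxia genes, 4 fell with MYCN, among them ANKRD37, BHLHE41 and P4HA2, and none rose, where 2.37% of all genes fell. With the mesenchymal score 7 of the 31 rose and none fell, where 3.46% of all genes rose. Among the 7 were the carbonic anhydrase CA12 (slope 3.21), the collagen hydroxylase P4HA1 (slope 1.20), LOX, GBE1, BHLHE40 and BHLHE41. All of these named genes had their highest level in GI-ME-N, and calls of this list were not counted without that line. Neither list had a call with EPAS1 or HIF1A in edgeR, and 10 of the 31 hypoxia genes had an unadjusted p under 0.05 with EPAS1 (10.4% of all genes) and 2 with HIF1A (8.61% of all genes). Wide ranges among the hypoxia genes were those of CA12 (SK-N-AS 0.212, GI-ME-N 633 CPM) and CITED2 (0 counts in Lan-6, SK-N-SH 210.2 CPM).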

How the data were processed

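RNA of 14 cell lines was sequenced from TruSeq libraries, 1 per line, per the labels' protocols. Named in the submitters' processing notes, without roles, are the build GRCh38, DESeq2 1.48.2 and kallisto 0.44.0. The deposited table holds whole numbers for 20049 gene symbols, taken for expected counts, which are estimates, rounded. That unit rests on the values. No source used here gives the authors' annotation, strand setting or filters. The deposited log2 values, called variance-stabilised, served as an alternative. CPM and log2 CPM (prior count of 2) were computed with TMM in edgeR 4.0.16 (R 4.3.3). Slope fits used genes kept by edgeR's low-count filter, and DESeq2 1.42.0 and limma 3.58.1 were alternatives. Lengths, GC content and positions were taken from GENCODE 29, which matched 98.9% of symbols. Values per kb use the median length of a gene's protein-coding transcripts. The trend was removed by a spline of 4 degrees of freedom for GC content and 4 for length per library. The state score is the difference of mean log2 CPM of 15 mesenchymal and 15 adrenergic markers. The fits were tested on simulated data.

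The genes, the lists and the tests were chosen with earlier results of these data known. Named were all members by level, members called in a fit or otherwise the 3 of smallest p, members at least 4-fold from the next line, and of the other lists called genes and the 3 of widest range. LDHA of MYCN, PGAM1 of MYCN and PDK1 of the subclones were named after their values were seen. Some genes that this rule names are not reported here. A count of 0 allows up to 3 counts. Depth ranged as given with the levels, and the 95% intervals cover counting error only. The counts of genes highest or lowest in 1 line were added after the data were seen.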

Additional observations from a re-analysis of the deposited data

How the results depend on the processing

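The results that answer a comparison had 106 alternative values, of which 81 stayed within 1.5 times the first count. For slopes on MYCN, 1 of 35 genes was called. DESeq2 called 7 (17.9% of all genes) and the fit of all 14 lines 2 (7.06%). The subclones in place of their parents gave 0 (0 of 18218 genes in all). The GC and length trend removed gave 0 (3.45% of all genes) and ranks of the level 0 (95 of 17781 genes). Leaving out each line in turn gave 0 to 4. For slopes on the mesenchymal score, 3 were called. DESeq2 called 6 (15.7% of all genes) and the trend removed 6 (8.09%). The subclones in place of their parents gave 1 (670 of 18647 genes in all) and ranks 1 (323 of 17752). The fit without Lan-6 and GI-ME-N gave 0 (533 of 18519). Leaving out each line in turn gave 0 to 7. With EPAS1 and HIF1A, DESeq2 called 5 and 1 where edgeR called 0, and leaving out each line in turn gave 0 in both. A 2-fold threshold in place of 4-fold gave 11 genes with 1 high line and 7 with 1 low line, 12 genes apart between SK-N-SH and SH-SY5Y and 4 between IMR32 and IMR5-75. The share of all genes past 2-fold was not counted, so these counts cannot be set against it. Correlations that changed sign were LDHA with LDHB (-0.15 without the 2 farthest lines), PGK1 with PDK1 (-0.19 without them, -0.0488 without GI-ME-N), ALDOA with ALDOC (-0.10 over 14 lines, -0.0341 without the 2 farthest, -0.31 without GI-ME-N), SLC16A1 with SLC16A3 (0.0878 with the trend removed), SLC2A1 with SLC2A3 (-0.18 without GI-ME-N) and HK1 with HK2 (0.11 without Lan-6), where leaving out GI-ME-N or Lan-6 alone was chosen after seeing the data. The cause of these changes was not tested. No paired analysis was possible because the labels put all lines in 1 group and the replicate numbers only name the lines. With 1 library per line, a difference between lines cannot be told apart from a difference between libraries, and CA9, with 0 to 7 counts in 5 lines, cannot be ranked among them.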

Other observations

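In NBL-S, 26 of the 35 genes were above their own median over the 14 lines, the second highest number after 30 in GI-ME-N and ahead of 23 in SK-N-SH, where 50.2% of all genes with at least 5 CPM in some line were above theirs in NBL-S. IMR32 had the fewest, 10. That share of all genes was 50.9% for SK-N-SH, 50.5% for IMR32 and 51.6% for GI-ME-N. None of the 35 had its highest or its lowest level in NBL-S. Of the 14769 genes, 2.87% had their highest and 4.22% their lowest level there, so this absence among 35 genes says little. SK-N-BE(2)C, LS and SH-SY5Y also had none of the 35 at the highest level, and SK-N-FI none at the lowest. SK-N-SH and GI-ME-N, which had like mesenchymal scores, were also set side by side. Of the 35, 29 were higher in GI-ME-N than in SK-N-SH, with a median log2 difference of 1.33, against a median of 0.00 over 14769 genes. The median log2 difference of SK-N-SH from the median of the other 12 lines was 0.32 for the 35 genes and 0.02 for the 14769. The part of the mesenchymal state in these differences was not tested.

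Around HK2 in Lan-6, 23 other genes with at least 5 CPM in some line lay within 500000 bases. Of these, 3 were under the median of the other lines. Another 10 were at their highest level of the 14 lines, a place that 18.6% of all such genes had in Lan-6. The neighbours were not counted again with the GC and length trend removed. PFKP had 1 such neighbour, PITRM1, at 41.1 CPM in Lan-6 and 31.6 to 194 CPM elsewhere.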
